A study of Mus musculus with 7 samples.

Results

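The 9 genes described here are transcription factors that mark or set the fate of T cells: Tcf7, Lef1, Id3, Bach2, Tbx21, Eomes, Bcl6, Foxp3 and Ikzf2. They were taken by name, with no measured value in the rule, from a list drawn up when earlier results of these data were known, and all 9 were found among the 55491 gene rows of the matrix of unique molecular identifiers (UMIs, 1 per captured RNA molecule). Each was read in the 14601 cells, of 28644, whose deposited name is a T cell or natural killer (NK) cell type. Those cells comprise 13692 T cells under 10 names and 909 NK cells under 1 name, out of 23 names in all.

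The cells came from brain hemispheres bearing CT-2A, a mouse glioma line grafted into the brain at 8 to 12 weeks of age. There were 4 mice with the Sall1CreERT2 driver and floxed Siglece alleles (Siglece KO, written KO) and 3 with the floxed alleles and no Cre (WT), with 1 library per mouse. Mice of both genotypes received 2.5 mg tamoxifen per injection from day 7 after grafting, daily to day 21 and then every other day, so the drug is common to both groups. Sall1 drives the inducible Cre in microglia, the resident macrophages of the brain, so the deletion was not aimed at the T cells measured here. Siglece encodes an inhibitory sialic acid receptor of myeloid cells. Tumour-bearing tissue was frozen as a cell suspension, thawed and sorted for live cells positive for CD45, CD11b or both, and sequenced from the 5′ end of the RNA.

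Each library held 1410 to 5856 cells and 16037214 to 38966377 UMIs. T and NK cells numbered 723, 2922, 3901 and 3784 in KO mice 1 to 4, and 362, 1557 and 1352 in WT mice 1 to 3. The median T cell held 3744 to 7169 UMIs by mouse, and by name from 2610 in the naive CD4+ cells to 10372 in the proliferating CD8+ cells. In microglia, Siglece was at 2, 1, 0 and 0 UMIs (10.7, 19.6, 0 and 0 CPM) in the KO mice and 20, 19 and 7 UMIs (36.1, 45.9 and 18.6 CPM) in the WT mice. KO mouse 2 thus lay above WT mouse 3, from 1 UMI, and the 2 microglia names held 0 to 34 cells each per KO mouse and 39 to 69 per WT mouse. Of the cell barcodes, 460 occurred in more than 1 library, 127 of them among T and NK cells. Sets of cells with under 20 members in a mouse were left out of the means, and this left out WT mouse 1 under 6 T cell names. Levels are CPM, the UMIs of a gene per 1000000 UMIs of all genes in the same cells, given as mean ± SD over mice. Because the names were made from the genes of these same cells, differences between names are descriptions with no test.

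A naive T cell is held in a resting, recirculating state by TCF-1 (from Tcf7) and LEF-1, sister factors that bind DNA through a high mobility group box. Id3 blocks E-protein transcription factors, and BACH2 represses effector genes. On stimulation these factors usually fall, and T-bet (Tbx21) and Eomesodermin (Eomes), a pair of T-box factors, drive interferon-gamma and cytotoxic genes in T helper 1, CD8+ and NK cells. BCL6 directs follicular helper T cells (Tfh), and FOXP3 directs regulatory T cells (Tregs), where Helios (Ikzf2) is usually found as well. In tumours and chronic infection, the exhausted CD8+ cells that can still renew themselves are known by their TCF-1, which the terminally exhausted cells lack.

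The stretches of DNA before the start sites of 4 of these genes are shown because each gene had a different pattern over the names. Foxp3 was held by 1 name with its proliferating form, and Tbx21 by nearly all names. Eomes was highest in NK cells, and Bcl6 was low, with Tfh and Th1 cells first. Each stretch is the 250 bases before a RefSeq start on GRCm38.p6, read 5′ to 3′ on the strand of the gene. Capitals mark TATAAA (the TATA box core) or GGGCGG (the GC box core), searched on both strands, where neighbouring matches may overlap. Foxp3 lies at chrX:7579426-7579675 on the plus strand, Tbx21 at chr11:97115332-97115581 on the minus strand, Eomes at chr9:118477939-118478188 on the plus strand and Bcl6 at chr16:23988853-23989102 on the minus strand.
Foxp3: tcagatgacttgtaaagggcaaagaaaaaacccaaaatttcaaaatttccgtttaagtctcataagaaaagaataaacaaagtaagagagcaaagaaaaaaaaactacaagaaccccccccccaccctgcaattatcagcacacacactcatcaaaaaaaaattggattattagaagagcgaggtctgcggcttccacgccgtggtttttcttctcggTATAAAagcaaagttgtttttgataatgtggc
Tbx21: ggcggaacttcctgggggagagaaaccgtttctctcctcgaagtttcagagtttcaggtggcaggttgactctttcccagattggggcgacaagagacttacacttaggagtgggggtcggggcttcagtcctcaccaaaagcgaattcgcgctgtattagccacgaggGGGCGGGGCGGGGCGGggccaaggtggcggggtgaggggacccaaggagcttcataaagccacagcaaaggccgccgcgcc
Eomes: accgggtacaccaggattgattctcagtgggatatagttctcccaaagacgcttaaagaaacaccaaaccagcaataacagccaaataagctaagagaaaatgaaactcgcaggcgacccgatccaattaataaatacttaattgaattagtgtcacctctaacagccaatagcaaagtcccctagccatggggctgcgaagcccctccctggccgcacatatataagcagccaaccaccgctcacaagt
Bcl6: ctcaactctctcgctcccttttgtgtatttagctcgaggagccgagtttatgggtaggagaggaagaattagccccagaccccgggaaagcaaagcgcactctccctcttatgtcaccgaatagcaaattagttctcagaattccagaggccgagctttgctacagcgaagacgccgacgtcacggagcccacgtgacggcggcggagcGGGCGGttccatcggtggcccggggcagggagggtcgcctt
The Foxp3 window shown was 37.6% G and C with 6 CpG pairs and held 1 TATAAA. In contrast, the Tbx21 window was 60.8% G and C with 16 CpG pairs and held 3 overlapping GGGCGG. The Bcl6 window shown was 58.4% G and C with 21 CpG pairs and 1 GGGCGG, and the Eomes window was 46.4% G and C with neither motif. Foxp3 and Bcl6 each have another RefSeq window, not shown, that lacks the motif. That of Foxp3 (chrX:7580233-7580482) was 46.0% G and C with no TATAAA. That of Bcl6 (chr16:23981284-23981533) was 54.8% G and C with no GGGCGG. Among 32851 windows of this length, the median G and C content was 52.4%, 12.4% held TATAAA and 32.7% held GGGCGG. RefSeq windows were found for 8 of the 9 genes, and Ikzf2 is named only. The Foxp3 window lies inside the gene as GENCODE annotates it (chrX:7573644-7595245), while the Tbx21 and Bcl6 windows end where the annotated genes (chr11:97098071-97115331 and chr16:23965052-23988852) begin.

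The 4 factors of naive and stem-like cells were highest in the 2 naive/early names and low in nearly every activated name. Tcf7 stood at 205.6, 206.5, 187.5 and 183.2 CPM in the naive/early CD4+ cells of the KO mice and at 291.0, 251.0 and 283.6 in the WT mice (229.8 ± 45.1, SD, n = 7). In naive/early CD8+ cells it stood at 165.9, 114.2, 120.1 and 154.3 CPM in the KO mice and 164.0, 139.5 and 155.7 in the WT mice (144.8 ± 20.8, n = 7). The CD4+ value was above the CD8+ value in 7 of 7 mice, and the gap of the means was larger than either SD.

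NK cells came next for Tcf7, at 104.8 ± 34.0 CPM, and the naive/early CD8+ cells were above them in 5 of 7 mice. γδ T cells followed at 85.1 ± 74.5 CPM over 4 mice. The CD8+ proliferating, Th1, Tfh, exhausted and proliferating CD4+/Treg names lay between 30.6 and 19.1 CPM and could not be put in an order beyond their spread. Tregs were lowest, with 6.32, 4.69, 3.86 and 4.10 CPM in the KO mice and 0.990 and 0 in WT mice 2 and 3.

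The cells named precursor-exhausted CD8+ held little Tcf7, the factor by which such cells are usually known. Their values were 12.2, 4.96, 4.83 and 9.34 CPM in the KO mice and 47.6, 17.6 and 2.86 in the WT mice. The highest value came from the 21 such cells of WT mouse 1. Against the naive/early CD8+ cells of the same mouse, Tcf7 was lower in 7 of 7 mice, and the naive/early mean was 10.2 times the precursor-exhausted mean (3.44 to 54.4 times within a mouse), or 16.4 times without WT mouse 1. The exhausted CD8+ cells held 20.9 ± 17.5 CPM (n = 6), so the name precursor-exhausted was not set above the name exhausted by Tcf7.

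Other genes of the same cells were read beside this. Slamf6, a surface receptor of stem-like CD8+ cells, was at 7.26 ± 5.26 CPM in precursor-exhausted cells, 8.54 in exhausted cells and 27.6 in naive/early CD8+ cells. Il7r, the interleukin 7 receptor, was at 117, 192 and 294 CPM in the same order. The inhibitory receptor Havcr2 (TIM-3) was at 121 ± 47.2 CPM in precursor-exhausted cells and 131 in exhausted cells, with 31.7 in naive/early cells. Lag3 followed the same order, at 374, 407 and 76.5 CPM, as did Gzmb (granzyme B) at 1151, 1372 and 827 CPM. Pdcd1 (PD-1) was at 646 ± 225 CPM in precursor-exhausted, 1039 in exhausted and 220.1 in naive/early cells. By the means of these genes the precursor-exhausted cells lay nearer to the exhausted than to the naive/early cells, though narrowly for Pdcd1. These genes are only part of the gene lists read. Tbx21 went the other way, at 133.4 CPM in precursor-exhausted, 139.2 in naive/early and 223.9 in exhausted cells. The authors' name is kept here only as a label.

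**Figure D1:**
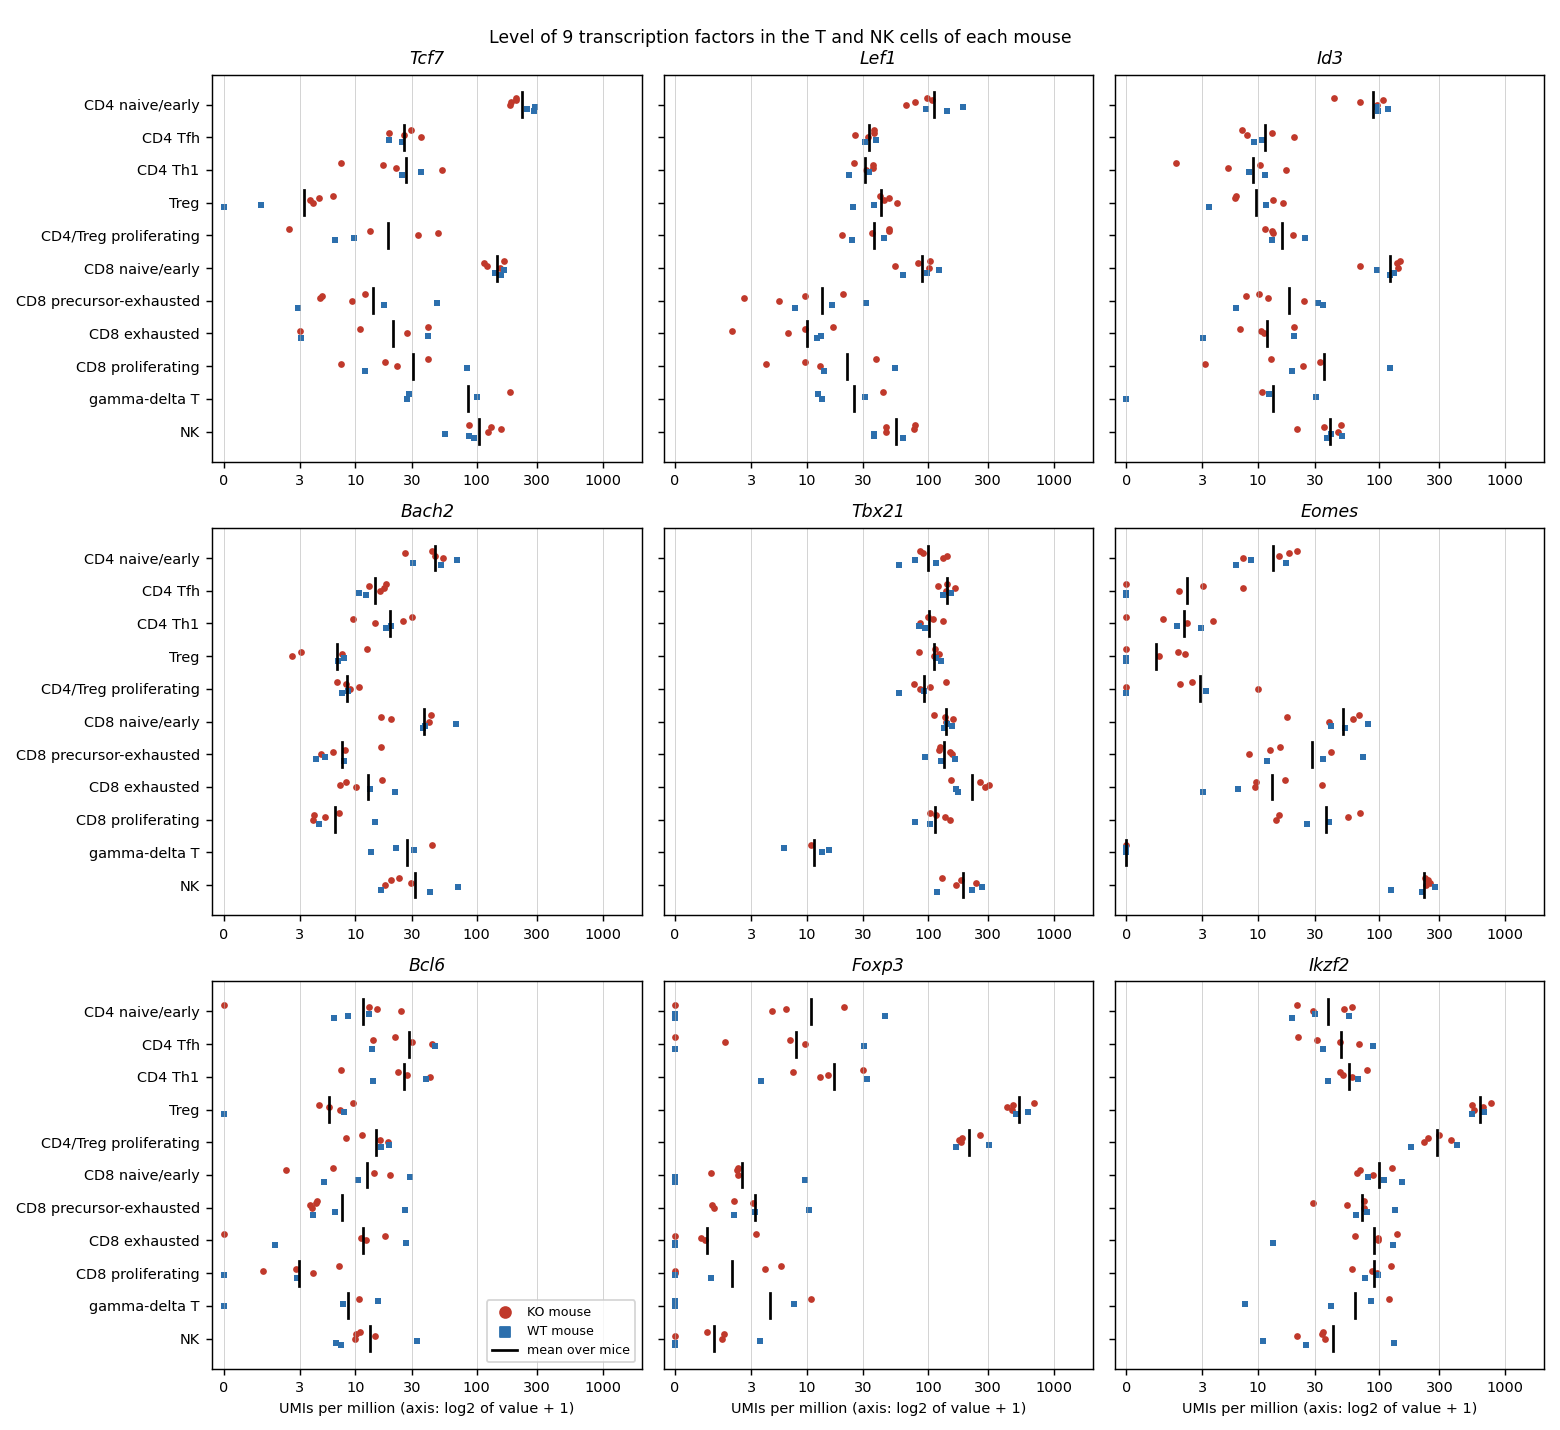
CPM of each of the 9 factors (horizontal axes, log2 of the value + 1) under the 11 T and NK names (vertical axes), with 1 panel per factor; points are KO and WT mice with at least 20 such cells, and bars are means. Tcf7, Lef1, Id3 and Bach2 peak in the naive/early names, Eomes in NK cells, and Foxp3 and Ikzf2 in Tregs.

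Lef1 followed Tcf7 in the naive/early names, at 111.1 ± 42.6 CPM in CD4+ and 89.4 ± 23.9 in CD8+ cells, which were not apart (CD4+ higher in 4 of 7 mice). NK cells held 55.0 ± 17.96 CPM. Unlike Tcf7, Lef1 was not lowest in Tregs: they held 41.1, 48.5, 44.4 and 55.8 CPM in the KO mice and 36.6 and 24.8 in WT mice 2 and 3. The Treg value was above that of Th1 cells in 6 of 6 mice (ratio of the means 1.36), whereas Tcf7 was the higher in Th1 cells in 6 of 6 mice, at a ratio of the means of 8.01 over a Treg level near 0 (1.18 to 35.7 times within a mouse, with 1 mouse at 0 in Tregs). These sister factors thus parted in Tregs, where Lef1 was near its level in Tfh cells (33.3 CPM) and Tcf7 was near 0. Precursor-exhausted and exhausted CD8+ cells held 13.5 ± 10.2 and 10.2 CPM of Lef1.

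Id3 had the opposite order in the naive/early names, with 120.9 ± 28.0 CPM in CD8+ and 89.4 ± 25.05 in CD4+ cells. The CD8+ value was higher in 7 of 7 mice, though barely in KO mouse 3 (70.1 against 69.8 CPM) and WT mouse 1 (96.5 against 95.6 CPM). NK cells came next at 40.2 ± 10.0 CPM, and Th1 cells were last at 9.08. The proliferating CD8+ cells had a mean of 35.9 CPM with an SD of 43.6, which came from WT mouse 2 at 122.4 CPM in 20 cells. Bach2 was at 45.8 ± 14.6 CPM in naive/early CD4+, 37.6 ± 16.7 in naive/early CD8+ and 31.5 ± 19.2 in NK cells, and no neighbours in its order were apart. Its lowest names were Tregs (6.83 CPM) and proliferating CD8+ cells (6.67 CPM).

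All 4 factors were higher in naive/early than in precursor-exhausted CD8+ cells. The naive/early mean was 6.62 times the precursor-exhausted mean for Lef1, 6.59 times for Id3 and 4.90 times for Bach2, each higher in 7 of 7 mice. They parted between precursor-exhausted and exhausted cells, where the exhausted value was the higher one in 6 of 6 mice for Bach2 and 5 of 6 for Tcf7, but in 2 of 6 for Lef1 and 1 of 6 for Id3. In the CD4+ lineage, the naive/early mean was 8.56 times the Tfh mean for Tcf7, 2.94 times for Lef1, 7.70 times for Id3 and 2.84 times for Bach2, each higher in 6 of 6 mice. Among the other factors the step from naive/early to precursor-exhausted CD8+ cells was smaller. Tbx21 in naive/early CD8+ cells was 1.04 times its precursor-exhausted level (higher in 4 of 7 mice), Ikzf2 was 1.35 times (6 of 7), Bcl6 1.63 times (6 of 7) and Eomes 1.81 times (7 of 7).

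**Figure D2:**
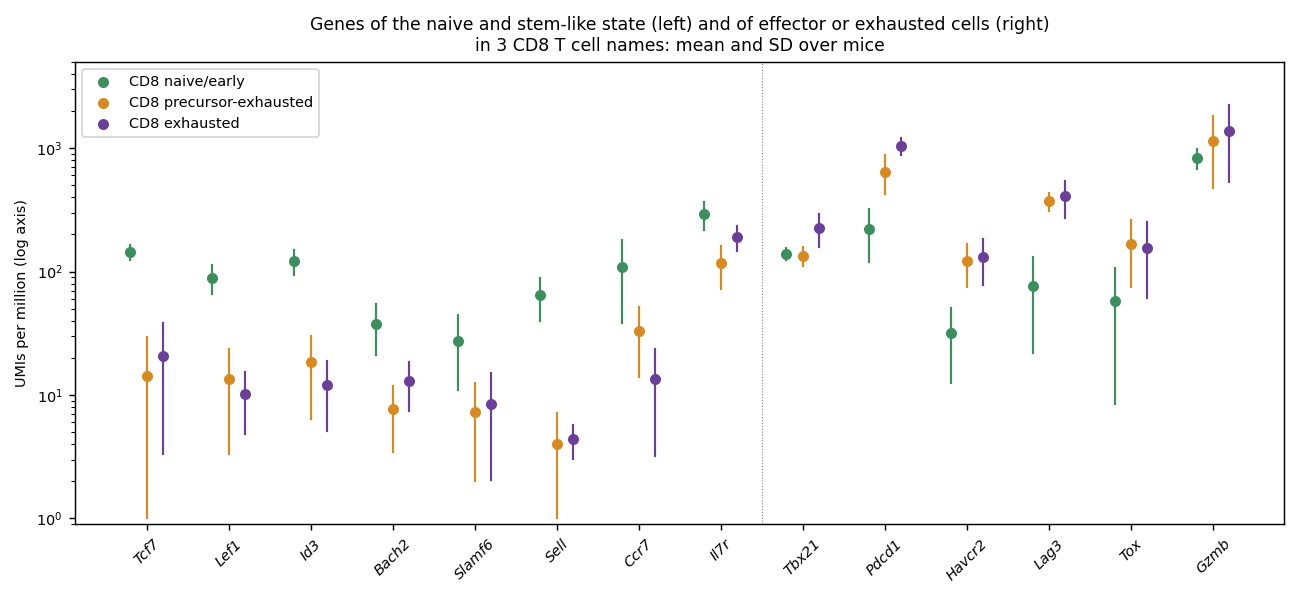
CPM (vertical axis, log scale; points are means over mice and lines the SD) of 14 genes (horizontal axis) in naive/early, precursor-exhausted and exhausted CD8+ cells. Tcf7, Lef1, Id3 and Bach2 are higher in naive/early cells (144.8 CPM for Tcf7) than in both other names, and precursor-exhausted and exhausted cells lie close together for Tcf7, Slamf6, Havcr2 and Lag3.

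Levels were also read by the cell cycle phase that the authors deposited for each cell. Among naive/early CD8+ cells, Tcf7 was at 154.6 CPM in cells in phase G1 and 124.3 CPM in cells called S or G2M, higher in G1 in 6 of 7 mice. Bach2 was at 41.6 against 27.7 CPM there (5 of 7 mice). In precursor-exhausted cells Tcf7 was at 7.27 CPM in G1 and 10.1 CPM in S or G2M (higher in G1 in 2 of 6 mice). The direction for Lef1 differed by name. It was at 90.6 CPM in G1 and 90.5 CPM in S or G2M in naive/early CD8+ cells, and at 9.495 against 1.43 CPM in exhausted cells (higher in G1 in 4 of 4 mice, though with 0, 1, 3 and 0 UMIs in S or G2M). In Tregs it was at 42.5 CPM in G1 and 58.5 CPM in S or G2M, higher in S or G2M in 4 of 4 mice, and in precursor-exhausted cells at 8.52 and 12.6 CPM (higher in G1 in 1 of 6).

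Tbx21 was at 92.7 CPM or more under 10 of the 11 names, all but γδ T cells. Exhausted CD8+ cells held 152.1, 257.8, 307.0 and 284.4 CPM in the KO mice and 168.1 and 174.0 in WT mice 2 and 3 (223.9 ± 67.1, n = 6). NK cells held 190.0 ± 57.6, Tfh cells 141.2 ± 15.1, naive/early CD8+ cells 139.2 ± 15.5 and precursor-exhausted cells 133.4 ± 23.4 CPM. Tregs held 112.5 ± 14.9 and naive/early CD4+ cells 100.5 CPM. No neighbours in the order of these 10 names were apart, but its ends were: the exhausted level was above that of each other αβ T cell name in 6 of 6 mice, at 1.60 times the precursor-exhausted mean.

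The γδ T cells stood apart for Tbx21, at 11.6 ± 4.0 CPM over 4 mice. Th1 cells held 6.97 times as much over the 3 mice with enough cells of both names. The γδ cells here carried genes of the interleukin 17 lineage: Il17a at 1521 CPM, Zbtb16 at 283 and Sox13 at 59.6, with Ifng, the main T-bet target, at 5.81 CPM.

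Tbx21 did not mark out the Th1 name. Th1 cells held 100.9 ± 17.1 CPM, and Tfh cells were above them in 6 of 6 mice (ratio of means 1.40, 1.10 to 1.80 within a mouse). Ifng was likewise at 1721 CPM in Tfh and 989 in Th1 cells, and Cxcr3, the receptor of interferon-induced chemokines, was at 63.9 and 57.6 CPM.

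Eomes marked NK cells. It stood at 232.1, 242.6, 252.0 and 235.3 CPM in the KO mice and at 276.8, 123.8 and 218.4 in the WT mice, above naive/early CD8+ cells in 7 of 7 mice (ratio of means 4.40, 3.06 to 13.6 within a mouse). WT mouse 2 was the low one. In CD8+ cells Eomes was at a middle level, with 51.4 ± 20.9 CPM in naive/early, 36.9 ± 22.7 in proliferating, 28.4 ± 23.7 in precursor-exhausted and 13.4 ± 11.2 in exhausted cells. The precursor-exhausted mean holds WT mouse 1, at 74.1 CPM from 14 UMIs in 21 cells. Over the 6 mice with both names, Eomes was at 20.7 CPM in precursor-exhausted and 13.4 CPM in exhausted cells, higher in the former in 4 of 6 mice (0.891 to 5.23 times within a mouse), so these names could not be put in an order for Eomes. CD4+ names other than naive/early (13.6 CPM) had under 3 CPM. γδ T cells had 0 of 706682 UMIs in 219 cells, which allows up to 4.25 CPM at a limit of 3 counts.

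Bcl6 was low under every name. Tfh cells, which the factor is known to direct, held 21.9, 14.2, 30.2 and 43.9 CPM in the KO mice and 46.4 and 13.8 in WT mice 2 and 3. Th1 cells held 7.45, 22.8, 27.5 and 42.3 CPM in the KO mice and 39.1 and 14.3 in the same WT mice. The Tfh and Th1 means, 28.4 ± 14.3 and 25.6 ± 13.6, were not apart (Tfh higher in 4 of 6 mice, 0.620 to 2.94 times within a mouse). The other 9 names ranged from 15.1 CPM in proliferating CD4+/Treg cells to 2.98 in proliferating CD8+ cells. Tfh cells were above naive/early CD4+ cells, Tregs, NK cells and naive/early, precursor-exhausted and proliferating CD8+ cells in 6 of 6 mice each. Th1 cells were above every CD8+ name in 6 of 6 mice.

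Of other genes tied to Tfh cells, those read here did not all line up behind the Tfh name against Th1 cells. Cxcr5, the chemokine receptor that brings Tfh cells into follicles, was at 1.67 ± 2.15 CPM in Tfh and 3.97 in Th1 cells. Il21, the cytokine of Tfh cells, was at 58.6 against 32.4 CPM, Pdcd1 at 884 against 869, and Tox2 at 13.9 against 25.3. Tox2 is counted below among the exhaustion regulators. Levels of the remaining follicular helper genes under these names are not given here. The name Tfh is therefore used here as the authors' label, and of these genes only Il21 was higher under it by more than 1.5 times.

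Foxp3 was nearly confined to 2 names. Tregs held 698.8, 474.6, 421.6 and 469.6 CPM in the KO mice and 628.7 and 499.5 in WT mice 2 and 3 (532.1 ± 107.3, n = 6). The proliferating CD4+/Treg cells held 261.7, 184.9, 175.7 and 184.2 CPM in the KO mice and 304.4 and 167.5 in the same WT mice. The Treg level was 2.50 times the proliferating level (2.06 to 2.98 times within a mouse). The Treg markers Il2ra and Ctla4 were at 850 and 1538 CPM in Tregs and at 573 and 975 CPM in the proliferating cells, whose name covers both Tregs and other CD4+ cells. Th1 cells held 16.99 ± 11.7 CPM, and the Treg mean was 31.3 times theirs. WT mouse 2 was the highest of the mice for Foxp3 in naive/early CD4+ cells (44.7 CPM) and Tfh cells (30.2 CPM), and KO mouse 1 (29.8 CPM) and WT mouse 2 (32.4 CPM) were high in Th1 cells.

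Ikzf2 followed Foxp3 at the top and differed from it below. Tregs held 765.2, 547.4, 661.9 and 561.4 CPM in the KO mice and 677.8 and 545.6 in WT mice 2 and 3 (626.5 ± 89.6, n = 6), 2.16 times the 289.6 ± 90.7 CPM of the proliferating CD4+/Treg cells. All CD8+ names then held Ikzf2 where they held almost no Foxp3: 98.9 ± 31.1 CPM in naive/early, 90.3 in both proliferating and exhausted, and 73.0 in precursor-exhausted cells. The remaining CD4+ names, NK cells and γδ cells held 63.2 CPM or less. The Treg mean was 10.9 times the Th1 mean for Ikzf2, so its step was smaller than that of Foxp3 in the same cells.

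The share of cells with at least 1 UMI depends on depth, so each cell was thinned to 2000 UMIs and shallower cells were left out. Foxp3 was then detected in 52.0% ± 10.97 of Tregs and 28.7% of proliferating CD4+/Treg cells (65.8% of Tregs unthinned), against 1.72% of Th1 cells and 0.351% of monocyte-derived cells, which should lack it. Ikzf2 was detected in 65.5% ± 6.27 of Tregs and 39.3% of the proliferating cells (81.1% of Tregs unthinned), against 1.15% of monocyte-derived cells. Eomes was detected in 32.0% of NK cells and 7.71% of naive/early CD8+ cells, against 0.121% of monocyte-derived cells. Tbx21 was detected in 34.4% of exhausted CD8+ cells, 32.2% of NK cells and 3.45% of γδ cells.

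Tcf7 was detected in 30.8% ± 8.48 of thinned naive/early CD4+ cells, 21.6% of naive/early CD8+ cells and 16.6% of NK cells. In precursor-exhausted cells it was found in 70 of 5029 cells over all mice, 1.39% (95% Clopper-Pearson interval 1.09% to 1.76%, which covers counting error only). Tregs gave 6 of 948 cells. For comparison, 0.414% of monocyte-derived cells and 0.598% of B cells held a Tcf7 UMI at the same depth, so the Treg share of 0.688% (mean over mice) was at background. The precursor-exhausted share is pooled over cells, so it is not ranked against these. By CPM, these cells were below B cells in KO mice 2 and 3 and WT mouse 3 (4.96, 4.83 and 2.86 against 6.24, 16.4 and 8.07). They were above B cells in KO mouse 4 and WT mice 1 and 2, and KO mouse 1 had under 20 B cells. The B cell values of KO mouse 2 and WT mouse 3 rest on 1 UMI each. Monocyte-derived cells held Tcf7 at 0.529 to 2.78 CPM, below the precursor-exhausted cells of the same mouse in every mouse. Lef1 in contrast was detected in 6.64% of Tregs. By CPM, monocyte-derived cells held Lef1 at 0.270 to 2.56, against 24.8 to 55.8 in Tregs of the mice with 20 such cells.

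Bcl6 gave 4.71% of Tfh cells and 4.39% of Th1 cells. Monocyte-derived cells gave 6.80% and microglia 4.50%, which are cells that use the gene themselves. The Tfh and Th1 shares were thus below that of monocyte-derived cells and near that of microglia, and they are not read as a difference between names.

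**Figure D3:**
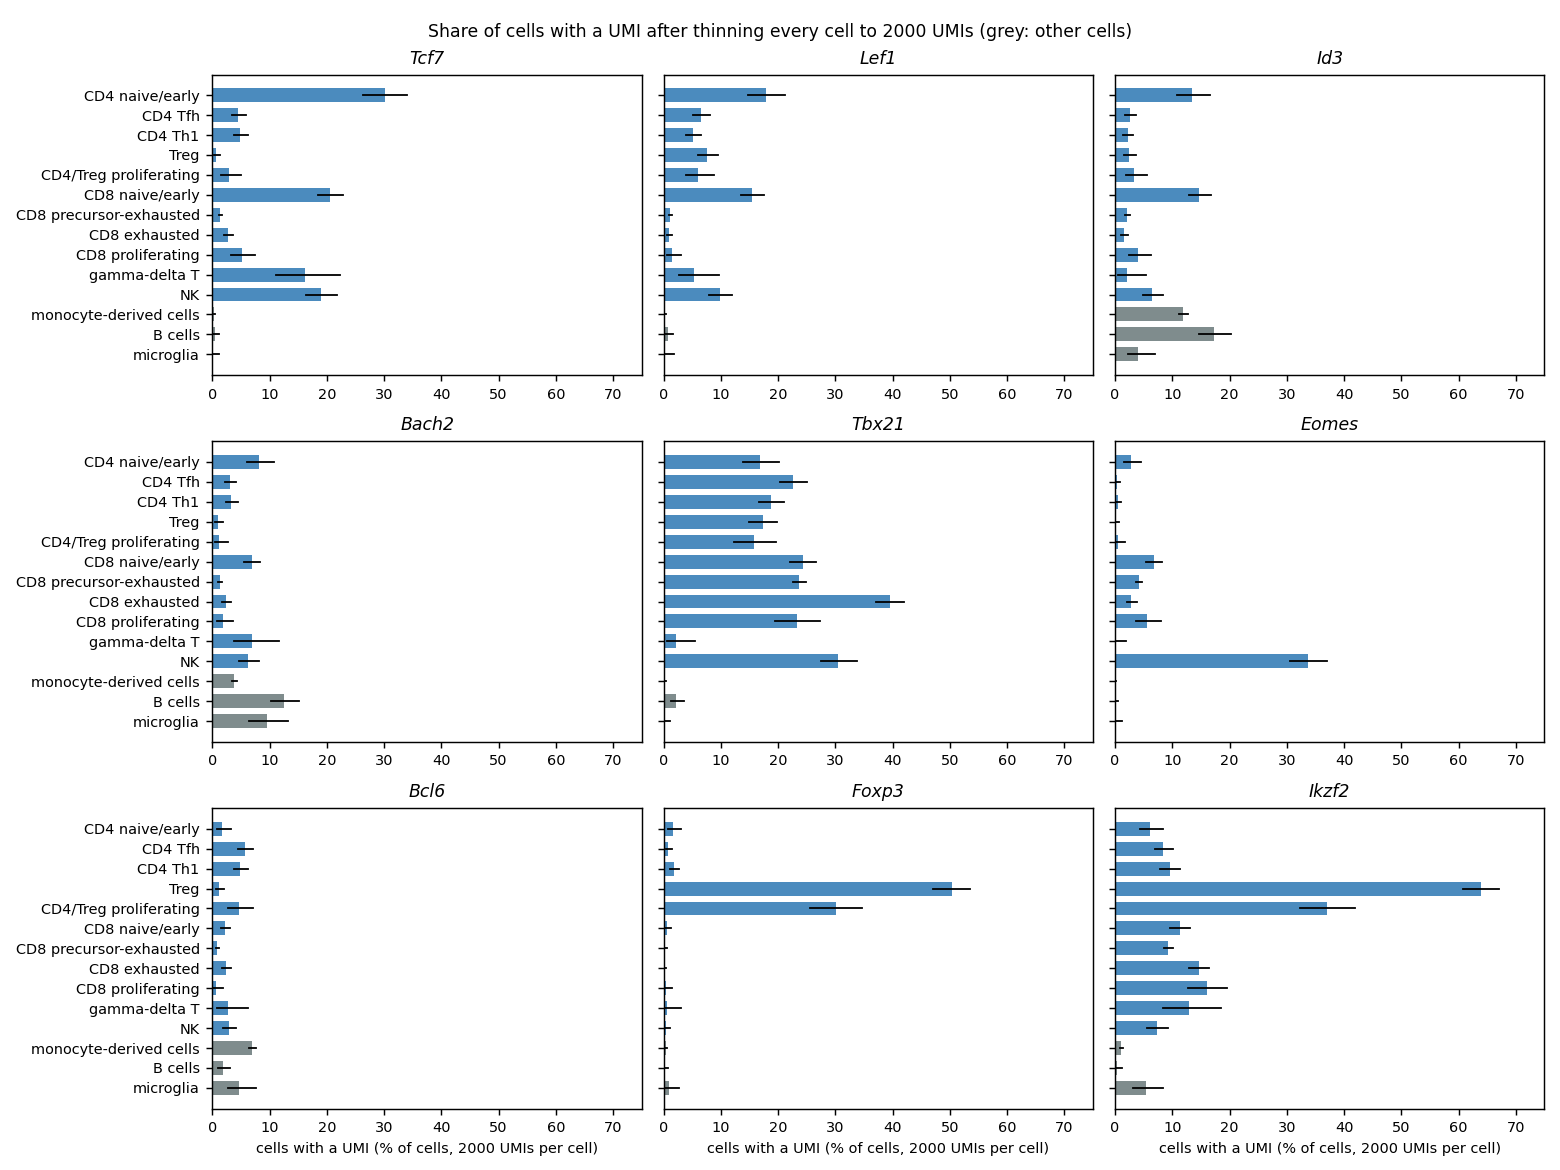
Percent of cells, pooled over mice, with at least 1 UMI of each factor after thinning to 2000 UMIs (horizontal axes) under each T and NK name and, in grey, in monocyte-derived cells, B cells and microglia (vertical axes); lines are 95% Clopper-Pearson intervals. Foxp3 reaches 50.3% and Ikzf2 63.9% of all thinned Tregs, while the Bcl6 bars of T cells are no longer than that of monocyte-derived cells (6.93%).

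Pairs of factors were then read in the same thinned cells, as a description without a test, since cells of a mouse share their source. Among Tregs with a Foxp3 UMI, 334 of 477 (70.0%) also held Ikzf2, against 272 of 471 (57.7%) without one, higher in 5 of 6 mice. The gap was wider in the proliferating CD4+/Treg cells, a name that mixes cell types, with 63.7% against 25.6% (5 of 5 mice). The few Th1 cells with Foxp3 held Ikzf2 in 9 of 22 cases (40.9%), against 8.95% of the other Th1 cells.

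Tcf7 and Lef1 also occurred in the same cells. In naive/early CD4+ cells, 28.5% of those with a Tcf7 UMI held Lef1, against 13.3% of those without (higher in 5 of 6 mice), and in naive/early CD8+ cells 22.7% against 13.6% (7 of 7). For Id3 the corresponding shares were 20.9% against 10.3% in CD4+ cells (5 of 6 mice) and 16.5% against 14.2% in CD8+ cells (4 of 7). In precursor-exhausted cells, 13 of the 70 cells with Tcf7 held Id3 (18.6%), against 1.92% of the others, higher in 3 of 3 mice.

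The T-box pair did not share cells in this way. Eomes was held by 34.0% of NK cells with Tbx21 and 33.6% of those without, higher in 3 of 7 mice. In naive/early CD8+ cells the shares were 5.50% and 7.15% (2 of 7 mice). Tbx21 was less frequent among Tcf7-positive than Tcf7-negative naive/early CD4+ cells, at 12.8% against 18.5% (lower in 5 of 6 mice). In Tfh cells, 10 of 55 cells with Tcf7 held Bcl6 (18.2%), against 5.09% of the others, in 2 of 2 mice with enough cells.

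**Figure D4:**
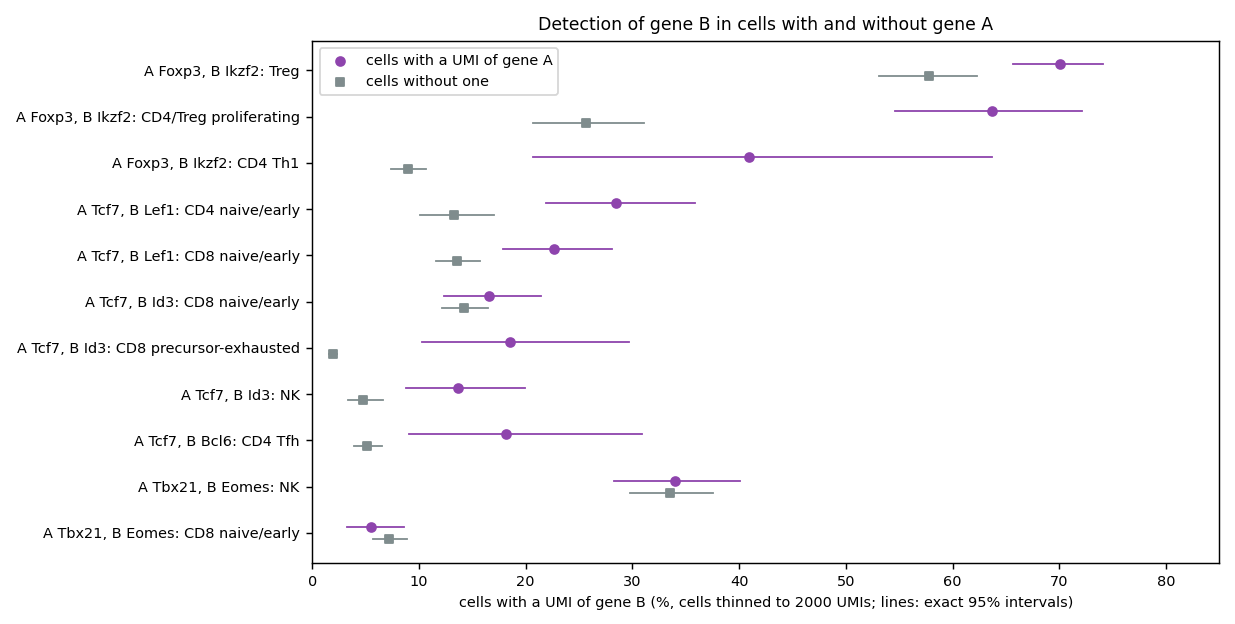
Percent of cells with a UMI of the second factor (horizontal axis) among cells with and without a UMI of the first, for the factor pairs (A first, B second) and names on the vertical axis, at 2000 UMIs per cell; lines are 95% Clopper-Pearson intervals. The points of Foxp3 and Ikzf2 in proliferating CD4+/Treg cells (63.7% and 25.6%) lie apart, while those of Tbx21 and Eomes in NK cells (34.0% and 33.6%) coincide.

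The patterns over the 11 names were compared as Pearson r of log2(CPM + 1), over 6136 genes with a mean of at least 20 CPM. All of these points share libraries and depth, so r is a description. The genes most like Bach2 were Tespa1 (r = 0.98), a T cell receptor signalling gene, Map4k4 (0.96) and Klf3 (0.92). Tcf7 was also most like Tespa1 (0.90), before Pi4ka (0.89) and Pdlim1 (0.88), and Lef1 most like Herpud1 (0.86) and Ly9 (0.85). Id3 was most like Cdk5rap3 (0.90), Crebzf (0.89) and H2aj (0.88). Tbx21 was most like Rgs3 (0.96), Nkg7 (0.96), a cytotoxic granule gene, and Itm2a (0.95).

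Eomes was most like Klrb1c (0.94), which encodes the NK receptor NK1.1, Car2 (0.94) and 1700025G04Rik (0.92). Bcl6 was most like Stat4 (0.88), Tnfsf8 (0.87) and Uri1 (0.85). The nearest patterns to Foxp3 were Ctsz (0.95), Cep85l (0.94) and Coro7 (0.94), and those to Ikzf2 were Chchd10 (0.91), Slc9a3r1 (0.89) and Rapsn (0.89). Among the members themselves, Tcf7 was nearest to Bach2 (0.89) and Id3 (0.77), with 0.58 for Lef1. Foxp3 and Ikzf2 reached 0.79, Tbx21 and Eomes 0.60, and Tcf7 and Ikzf2 went in opposite directions (-0.70).

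The comparison of genotypes asked whether loss of Siglece from microglia went with other levels of these factors in T and NK cells of the tumour. None of the 9 factors was called in all T cells (edgeR quasi-likelihood test, adjusted p under 0.05), against a background of 0% of the 13043 genes tested. By the unadjusted p under 0.05, 855 genes passed (6.56%), and DESeq2 called 35 genes after adjustment, none of them a member. For all 9 factors the values of KO and WT mice overlapped, as they did for all but 7.26% of the genes.

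The 4 naive-type factors had lower means in KO T cells, with 1 WT mouse setting much of the gap. Tcf7 was at 38.2, 25.5, 17.8 and 34.7 CPM in the KO mice and at 112.8, 54.6 and 21.2 in the WT mice, a log2 difference (KO minus WT) of -0.9995 (SE 0.53, edgeR adjusted p = 0.776). WT mouse 1 had the highest value, and WT mouse 3 lay within the KO range. Without WT mouse 1 the log2 difference was -0.36, and without WT mouse 3 it was -1.42. Lef1 (-0.78, adjusted p = 0.823), Bach2 (-0.69, 0.777) and Id3 (-0.47, 0.846) had differences of the same sign. Without WT mouse 1 they were -0.40, -0.23 and -0.32.

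The makeup of the T cells differed along with these values. Naive/early CD4+ cells were 4.84% ± 0.977 of KO T cells and 20.3%, 10.5% and 4.92% of those of WT mice 1 to 3. Naive/early CD8+ cells were 10.8% ± 3.05 and 17.7% ± 9.32, and γδ cells 1.35% and 10.4% (25.7% in WT mouse 1). Precursor-exhausted cells were 37.8% ± 12.8 of KO and 17.6% ± 15.6 of WT T cells. A change of level in a cell and a change in the mix of cells cannot be told apart in the sum over all T cells. With equal weight for the 3 names that had 20 cells in every mouse (naive/early CD4+, naive/early CD8+ and precursor-exhausted), the difference in log2(CPM + 1) was -0.51 for Tcf7 (two-sided exact permutation p = 0.200 over 35 divisions, 0.579 adjusted over the 9 factors) and -0.60 for Lef1 (exact p = 0.257). For Lef1, WT mouse 1 was the highest, at 6.52 against 5.78 and 5.44 in WT mice 2 and 3 and 4.64 to 5.92 in the KO mice. Over the 7 names with at least 10 cells in every mouse, the difference for Tcf7 was 0.021 (exact p = 0.886), so its direction depended on the names taken, and without WT mouse 1 it was -0.19 over the 3 names. Some added names rest on few Tcf7 UMIs. The γδ cells of KO mice 2 to 4 gave 2, 9 and 5 UMIs in 11 cells each. The proliferating CD4+/Treg cells of WT mouse 1 gave 0 UMIs in 11 cells. The lowest exact p was 0.0857, for Ikzf2, with a difference of -0.27 (adjusted 0.579). There WT mouse 2 was the highest, at 6.32 against 6.13 and 5.88 in WT mice 1 and 3 and 5.66 to 5.91 in the KO mice.

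Tbx21 had the only unadjusted p under 0.05 among the members in all T cells, and that count depended on single mice. It was 6 of 9 without WT mouse 3, 2 without KO mouse 1 and by DESeq2, and 0 without KO mouse 3, KO mouse 4 or WT mouse 1 and with the proliferating names left out. Over all genes, 1260 of 13718 passed without WT mouse 3, 1029 of 13235 without KO mouse 1 and 847 of 13043 by DESeq2. Among the fits with 0 factors, the genes passing ran from 525 of 12765 (without KO mouse 3) to 768 of 12731 (without KO mouse 4). Tbx21 was at 118, 124, 170 and 159 CPM in the KO mice and at 76.8, 122 and 114 in the WT mice, a log2 difference of 0.48 (SE 0.20, edgeR adjusted p = 0.731). KO mouse 1 lay below WT mouse 2. With the 3 names weighted equally, the difference was 0.16 (exact p = 0.429). On that scale KO mouse 3 was at 7.23 and the other KO mice at 6.74 to 7.16. WT mouse 2 was at 7.17 and the other WT mice at 6.65 and 6.68, so the difference depends on single mice. Eomes differed by 0.33 (adjusted p = 0.939), from 19.5 ± 12.0 CPM in KO and 17.04 ± 8.35 in WT T cells. Without KO mouse 3 (34.9 CPM) it differed by -0.15.

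Foxp3 was at 42.2 ± 22.1 CPM in KO and 73.1 ± 61.8 in WT T cells, a log2 difference of -0.78 (SE 0.67, adjusted p = 0.870) that was 0.19 without WT mouse 2 (144 CPM), the mouse with the largest Treg share (16.4% of T cells). Ikzf2 differed by -0.38 (adjusted p = 0.839), or -0.02 without the same mouse. Bcl6 differed by -0.54 (adjusted p = 0.821), or -0.15 without it.

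Markers of γδ, NK, myeloid and dendritic cells in the sum over all T cells were read beside these values. The γδ cells are part of that sum, and the NK list holds Gzma, Prf1 and Klrk1, which cytotoxic T cells also use. Neither of these sums is thus RNA of other cells alone. The summed level of 8 NK markers ran from 562 to 1134 CPM in the KO mice and from 351 to 1902 in the WT mice, and that of 5 γδ markers from 7.0 to 97.6 and from 24.3 to 1296. The 9 myeloid markers summed to 469 to 1629 CPM in the KO and 965 to 1365 in the WT mice. Each of these ranges overlapped between genotypes. That of 6 markers of dendritic cells did not: it ran from 9.62 to 13.76 CPM in the KO mice and from 13.995 to 19.4 in the WT mice, with none of the 6 at 0 in any mouse. No other marker list read in the T cells had ranges apart. Cells named cDC2, a dendritic cell type, held Tcf7 at 59.3 to 140 CPM, but those named cDC1 held 0 to 2.06 CPM and plasmacytoid dendritic cells 0 to 4.92 CPM. The 6 markers are Xcr1, Clec9a, Flt3, Zbtb46, Siglech and Ccr9. None of them is particular to cDC2, so their sum does not measure RNA of cDC2. No NK marker was at 0 in a KO mouse, and 1 was at 0 in each of WT mice 1 and 2. Their part in the genotype differences was not tested.

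**Figure D5:**
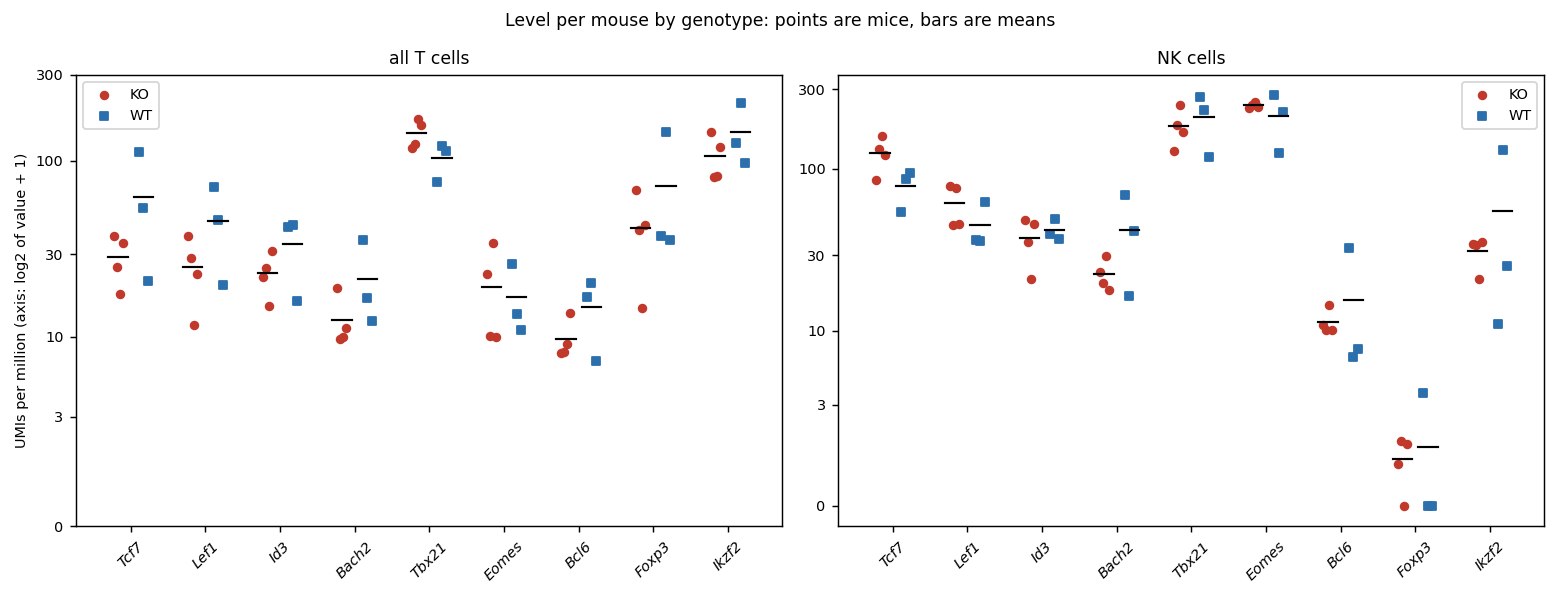
CPM (vertical axes, log2 of the value + 1) of the 9 factors (horizontal axes) in all T cells (left) and NK cells (right); points are KO and WT mice and bars are means. The points of the genotypes overlap for every factor, and WT mouse 1 is the highest for Tcf7 in T cells at 112.8 CPM.

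In single T cell names, none of the 9 factors was called. The background of genes called was 0% in naive/early CD4+, precursor-exhausted and proliferating CD8+ cells, 0.0114% in Tfh, 0.0326% in Th1, 0.0411% in Tregs, 0.0494% in proliferating CD4+/Treg, 0.0241% in naive/early CD8+ and 0.0135% in exhausted cells. In naive/early CD4+ cells, Tcf7 was lower in every KO mouse (195.7 ± 12.1 CPM, n = 4) than in every WT mouse (275.2 ± 21.3, n = 3), with a log2 difference of -0.48 (SE 0.18, edgeR adjusted p = 0.928, 0.747 to 1.00 over the alternatives). Under this name, 3.53% of 5323 genes were lower in every KO mouse. Lef1 was higher in Tregs of every KO mouse (47.4 ± 6.34 CPM, n = 4) than in those of WT mice 2 and 3 (30.7 ± 8.35), with a log2 difference of 0.55 (adjusted p = 0.977), where 7.36% of genes were higher in every KO mouse. WT mouse 1, left out for having under 20 Tregs, was at 134 CPM from 4 UMIs, above all KO mice. Eomes was higher in exhausted CD8+ cells of every KO mouse (17.6 ± 11.7 CPM, n = 4) than in those of WT mice 2 and 3 (4.90 ± 2.58), with a log2 difference of 2.24 (adjusted p = 0.969), beside 10.8% of genes higher in every KO mouse. The WT values rest on 1 UMI in 37 cells and 2 UMIs in 117 cells, and without WT mouse 3 the log2 difference was 1.46.

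Bach2 in Tfh cells was the fourth case, at 16.3 ± 2.28 CPM in KO and 11.5 ± 1.07 in WT mice 2 and 3 (log2 difference 0.49, adjusted p = 1.00), beside 6.64% of genes higher in every KO mouse. WT mouse 1, left out, was at 33.6 CPM from 4 UMIs. Tcf7 in Tregs was 4.74 ± 1.11 CPM in KO mice and 0.495 ± 0.700 in 2 WT mice, below the filter on low counts, so the main fit leaves it out. Without the filter its log2 difference was 2.29 (edgeR adjusted p = 0.859). In all, 4 of the 61 fits of a member under a T cell name had genotypes that did not overlap, beside the genes without overlap under these names: 6.18% in naive/early CD4+, 12.8% in Tfh, 12% in Th1, 15% in Tregs, 11.4% in proliferating CD4+/Treg, 6.76% in naive/early CD8+, 6.8% in precursor-exhausted, 17.3% in exhausted and 14.7% in proliferating CD8+ cells. γδ T cells could not be compared, since only KO mouse 1 had 20 of them.

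The genotype difference was also compared between CD8+ and CD4+ T cells of the same mice. Of the 9 factors, 0 were called, against 0% of 12244 genes (702 had an unadjusted p under 0.05). Bach2 had the lowest p, with a difference of the log2 differences (CD8+ minus CD4+) of -0.81 (edgeR adjusted p = 0.868). Next was Eomes, at -1.15 (adjusted p = 0.873).

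In NK cells, 7 of the 9 factors passed the filter and none was called, against 0.0141% of 7068 genes. Tcf7 and Bach2 had an unadjusted p under 0.05, as did 4.09% of all genes. Neither had one without WT mouse 1, and 1 of the pair had one without KO mouse 2, KO mouse 3 or WT mouse 3. Tcf7 was at 86.0, 131, 157 and 122 CPM in the KO mice and at 55.4, 87.0 and 94.9 in the WT mice, a log2 difference of 0.57 (SE 0.24, edgeR adjusted p = 1.00). The sign is opposite to that in T cells. Bach2 was at 23.4, 20.2, 29.5 and 18.1 CPM in the KO mice and at 70.1, 16.7 and 42.2 in the WT mice (log2 difference -0.95, SE 0.35, adjusted p = 1.00). In each case the genotypes overlapped by 1 KO or WT mouse: KO mouse 1 for Tcf7 and WT mouse 2 for Bach2.

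Eomes and Tbx21, on which NK cells rest, differed by less than the spread between mice. Eomes was at 240.5 ± 8.81 CPM in KO and 206.3 ± 77.2 in WT NK cells (0.20), and Tbx21 at 179.7 ± 47.4 and 203.7 ± 78.0 CPM (-0.17), both with adjusted p = 1.00. Lef1 (0.29), Id3 (-0.09) and Ikzf2 (-0.65) had the same adjusted p, and the Ikzf2 value in WT NK cells came from WT mouse 2, at 130.5 CPM against 11.1 and 25.6 in the other WT mice.

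Other genes of these programmes were counted from 6 lists, none of whose members was called in T cells (edgeR, adjusted p under 0.05). Of 15 stem-like and naive T cell genes, 14 had a log2 difference below 0 and 1 above, with a median of -0.67, beside a median of 0.01 over all genes tested. Without WT mouse 1 it was 12 below and 3 above, with a median of -0.18, and without KO mouse 3 the median was -0.41. The most abundant of them were Klf2, which keeps naive cells recirculating (265 ± 55.2 CPM in KO and 457 ± 225 in WT mice, log2 difference -0.73, adjusted p = 0.750), and Il7r (-0.38, adjusted p = 0.776). The 14 T-box effector genes had 9 above and 5 below 0 (median 0.13), led in level by Ccl5 (0.64, adjusted p = 0.738) and Nkg7 (0.50, adjusted p = 0.733). Exhaustion regulators were balanced, with 6 of 13 above 0 and a median of -0.05 (-0.18 to 0.11 with each mouse left out), and their most abundant genes were Id2 (0.16) and Bhlhe40 (0.03).

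Of the regulatory T cell genes, 3 of 15 tested were above and 12 below 0 (median -0.28), with Tnfrsf9 at -0.08 and Ctla4 at 0.18 as the most abundant. Of the follicular helper genes, 3 of 11 tested were above 0 (median -0.33), with Pdcd1 at 0.54 and Hif1a at -0.19. Both medians turned without WT mouse 2, to 0.07 for the regulatory T cell genes (9 of 15 above 0) and 0.35 for the follicular helper genes (7 of 11 above 0). The 19 other lineage factors tested had 5 above and 14 below 0 (median -0.17), with Stat3 at 0.26 and Ets1 at -0.08 (median -0.33 without WT mouse 3 and -0.10 without WT mouse 1). In this sum over all T cells, a change within cells and a change in their makeup cannot be told apart. In NK cells the stem-like list had 4 of 10 genes above 0 (median -0.11, or 0.06 without WT mouse 1), and the T-box effector list 2 of 14 (median -0.28, or -0.14 with 6 of 14 above 0 without WT mouse 1), with Ccl5 at -0.78 and Gzmb at -0.29.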

How the data were processed

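Live cells positive for CD45, CD11b or both from 7 tumour-bearing mice were sequenced as 1 droplet library per mouse with a 5′ kit, per the labels' protocols. The submitters' processing notes name STARsolo, STAR 2.7.10a, FastQC 0.11.5 and the mm10 build. The values the authors deposited are unscaled UMI numbers of every gene in every cell, treated here as estimated counts because 7.51% of those above 0 are not whole. Among the 9 factors only Foxp3 had such values (0.704% of its UMIs), and how they arose is not given in the sources used here. The authors also deposited, per cell, the number of genes detected (a count), the percent of mitochondrial UMIs, the cell cycle phase and the cell name used here. All columns of cells were mapped to a mouse by the prefix of the barcode (0 unmapped). Doublet removal is not described in the sources used here, and no doublet caller was run.

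UMIs were summed per mouse and name, and the sums were rounded. The genotype comparisons used edgeR 4.0.16 (quasi-likelihood test, TMM scaling, filterByExpr, robust) over all genes, in mice with at least 20 cells of a name, with Benjamini-Hochberg adjustment and a threshold of 0.05; mice, not cells, are the replicates. DESeq2 1.42.0 was an alternative, beside upper-quartile scaling, no filter, values rounded down, sex as a term, a replicate block, each mouse left out, and proliferating names left out. Sex was read from Xist and Y-linked genes. KO mice 1 and 2 and WT mouse 3 read as female, and KO mice 3 and 4 and WT mice 1 and 2 as male. The level with equal weight per name was tested by exact permutation, with a pseudocount of 1 CPM. With 35 divisions, a single factor cannot reach the threshold after adjustment, so the lack of a call there does not show equal levels. Neighbouring names are called apart where the gap of their means exceeds the larger SD. Members were all named in T cells and NK cells, and under single names where called or where the genotypes did not overlap; listed genes were named where called, or else the most abundant pair of each list; the most alike genes were the 3 of highest r. The members and lists were chosen with earlier results of these data known. Figures were drawn with matplotlib 3.10.9. Some genes that the naming rule selects are not reported here.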

Additional observations from a re-analysis of the deposited data

Results flagged for a closer look

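A mouse was marked where its gap to the nearest mouse of its genotype exceeded the 95% critical value of Dixon's test over the range of the group. Of 77 groups of 4 mice that could be read (the KO mice, per factor and name), 3 were marked, and chance marks about 1 group in 20. In naive/early CD8+ cells, Id3 was at 70.1 CPM in KO mouse 3, against 138, 141 and 147 in the other KO mice and 96.5 to 131.8 in the WT mice. In proliferating CD4+/Treg cells, Foxp3 was at 262 CPM in KO mouse 1, against 176, 184 and 185 in the other KO mice. In NK cells, Ikzf2 was at 21.3 CPM in KO mouse 3, against 34.6, 35.2 and 36.2 in the other KO mice and 11.1, 130.5 and 25.6 in the WT mice.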

How the results depend on the processing

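No factor was called in any of 1066 fits over the names and alternatives (lowest edgeR or DESeq2 adjusted p 0.201). In 83 of these, leaving out a mouse left 1 WT mouse, which is assumed to vary like the others, so those fits say little about stability. Of the results recomputed, 556 single values and 68 summary counts kept their direction and their side of the threshold, or moved by less than the spread between mice or 1.5 times, while 27 values and 1 count moved by more and 16 values changed sign. Among the counts that stayed are those of the equal-weight permutation with a mouse left out or with the block. Its divisions are then too few for a p under 0.05, so those counts were fixed in advance. The gene lists and the Tcf7 ratio with each mouse left out were added after seeing the data. In all T cells, 0 genes were called, against 35 by DESeq2, 3 without the filter on low counts and 2 without KO mouse 4; in NK cells the 1 call became 4 by DESeq2 and 27 without the filter. Signs turned on single mice, with the cause not tested. In all T cells, leaving out each mouse gave -0.15 (without KO mouse 3) to 0.68 for Eomes and -1.12 to 0.19 (without WT mouse 2) for Foxp3. In NK cells the ranges were -0.21 to 0.071 for Id3 (0.071 without KO mouse 3, 0.041 without WT mouse 2), -0.46 to 0.11 for Tbx21 (without WT mouse 1), -0.030 (without WT mouse 2) to 0.45 for Eomes, and -1.12 to 0.66 (without WT mouse 2) for Ikzf2. With equal weight per name, leaving out mice gave -0.36 to 0.0043 for Bach2 and -0.64 to 0.94 for Foxp3 (0.23 without KO mouse 1, 0.05 without KO mouse 3, 0.0068 without KO mouse 4, 0.94 without WT mouse 2). Taking the 7 names with at least 10 cells in every mouse gave 0.021 for Tcf7, 0.26 for Eomes and 0.31 for Foxp3.

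The replicate numbers gave no sign of pairing: same-numbered KO and WT mice had correlations of 0.066, 0.00059 and -0.069 over genes. Pairs with unlike numbers had -0.19 to 0.17. So few values cannot settle whether the mice were paired. With the replicate block, 0 factors were called in all T cells, NK cells or single names, and 3 genes were called in all T cells. For the level with equal weight, the block leaves too few sign changes for a p under 0.05, so it could call none. The block fit holds mice 1 to 3 of each genotype, so it also leaves out KO mouse 4. Under it, 5 factors in all T cells and 1 in NK cells had an unadjusted p under 0.05, against 0 and 2 without KO mouse 4 and with no block. Over all genes, 848 of 12731 in all T cells and 204 of 6800 in NK cells passed under the block. Without KO mouse 4 and with no block, 768 of 12731 and 262 of 6800 did. Under the replicate block the equal-weight difference of Foxp3 was 0.0068, the value that leaving out KO mouse 4 alone gives. Without thinning, the name with the highest share stayed the same for 4 of the 9 factors; at 1000 and at 4000 UMIs it stayed for 7. The name with the highest mean level stayed the same for all 9 under pooling and with each mouse left out. The name with the highest share changed at 2 of these 3 depth settings for Bach2, Tbx21 and Bcl6.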

Other observations

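Several of the 9 factors were also present in cells that are neither T nor NK cells. Tcf7 was at 139, 125, 131 and 95.7 CPM in the cells named cDC2 (a dendritic cell type that presents antigen to CD4+ T cells) of KO mice 1 to 4, and at 123, 140 and 59.3 CPM in those of the WT mice. At 2000 UMIs per cell, 170 of 919 of these cells held a Tcf7 UMI (19.2% ± 5.16 over mice), against 0.216% of cDC1 and 0.186% of plasmacytoid dendritic cells (pDCs). Lef1 was found in 1 of the same 919 cells. The T cell receptor gene Cd3e was at 18.1 CPM in cDC2 and at 750 CPM in naive/early CD4+ cells.

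Id3 was at 166 to 393 CPM in pDCs and 62.7 to 318 CPM in monocytes over the 7 mice. Bcl6 was at 37.6 to 55.1 CPM in cDC1 and 26.6 to 55.3 CPM in monocytes, above its mean in Tfh cells (28.4 CPM) in all 7 mice for cDC1. Bach2, which B cells also use, was at 84.7 ± 76.9 CPM in B cells over 6 mice.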
